A study of Homo sapiens with 9 samples.

Results

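The AXL and MET receptor families were taken as 7 genes of the 58735 in the table of gene counts, chosen by name and matched to Ensembl identifiers through the GENCODE annotation. They comprise the TAM receptors AXL, TYRO3 and MERTK, their ligands GAS6 and PROS1, and the receptors MET and MST1R. RNA sequencing (RNAseq) was carried out on 786-0 cells, a clear cell renal cell carcinoma line, in 3 groups of 3 libraries grown under normoxia for 48 h. WT denotes the parental line without PT2385. It lacks functional VHL and, through a mutation of the gene, functional HIF1α, and HIF2α is active in it also under normoxia. Whether these control cultures received the solvent of PT2385 is not given in the sources used here, so that effects of drug and solvent cannot be told apart. PT2385 denotes the same WT cells treated with 10 μM of PT2385, a HIF2α antagonist, for 48 h. KO denotes 786-0 cells labelled as a knockout of HIF2α, without PT2385. How the KO cells were made, and whether they are a single line or 1 clone, is not given in the sources used here. The paper describes silencing of HIF2α by siRNA and does not describe a knockout. The labels do not say whether the replicates came from separate cultures, so p-values measure only the spread between these libraries, which may be technical.

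TAM receptors are receptor tyrosine kinases with immunoglobulin-like and fibronectin type III domains outside the cell. GAS6 and protein S, the product of PROS1, are vitamin K-dependent proteins that bind phosphatidylserine on dying cells with one end and a TAM receptor with the other. PROS1 protein activates TYRO3 and MERTK, whereas GAS6 binds all of the TAM receptors and AXL most tightly. MET is the receptor of hepatocyte growth factor (HGF), and MST1R, also called RON, is that of the related macrophage-stimulating protein (MST1). Both families have been studied in clear cell renal carcinoma, where AXL and MET are targets of kinase inhibitors.

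The questions addressed were whether these genes differed when HIF2α was inhibited and when it was lost, and whether inhibition and loss differed from each other. Total counts per library ranged from 11881000 to 14730081. EPAS1, the gene of HIF2α, had 3226, 3210 and 2788 counts in WT, 3075, 3317 and 3132 with PT2385, and 262, 360 and 307 in KO. The KO libraries thus had less EPAS1 RNA, which goes with their label but does not tell a knockout from silencing. The hypoxia-inducible gene VEGFA, with a log2 fold change of -2.12 in both comparisons with WT, was down-regulated upon PT2385 treatment (edgeR adjusted p = 1.93e-09) and in KO (edgeR adjusted p = 3.72e-08). All 8 markers fixed for a renal carcinoma line, among them PAX8 and KRT18, were above the detection floor of 3 counts in every library, with summed levels of 6340 to 6810 CPM (counts scaled to the size of the library) in WT, 6290 to 6830 with PT2385 and 6360 to 6690 in KO. Single renal carcinoma markers differed between groups, which the sums do not show. Of these 8, edgeR called 3 higher and 1 lower with PT2385 (50%, against 7.70% of all genes). In KO it called 3 higher and 2 lower (62.5%, against 30.1%). All 5 endothelial markers were at or under the detection floor in every library. Of 6 leukocyte markers, CSF1R was above the floor in every library, with at most 19 counts, and CD14 was so in every KO library, with at most 18, while the summed level was 1.15 to 1.59 CPM in WT, 1.27 to 2.10 with PT2385 and 1.31 to 1.85 in KO. The leukocyte marker PTPRC had at most 1 count. Of 6 fibroblast and muscle markers, COL1A1 and PDGFRB were above the floor in every WT and PT2385 library and COL1A1 alone in KO, with summed levels of 7.02 to 8.89 CPM in WT, 8.38 to 10.5 with PT2385 and 2.01 to 3.23 in KO, where both were lower than in WT by edgeR. The part of other cells in the results below was not tested. In RNA from whole cultures, fewer cells that use a gene and less of its RNA per cell cannot be told apart.

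The DNA just before the transcription start sites is shown first, since HIF binds a short core sequence, ACGTG or GCGTG, and these cells differ in HIF2α. The 250 bases upstream of the start sites were taken from RefSeq (GRCh38.p14), in which all 7 genes had an entry, and searched for ACGTG and GCGTG on both strands. ACGTG on both strands can overlap, as in CACGTG, which none of these windows held. Of 35116 promoters of the same length, 18.5% hold ACGTG, 32.2% hold GCGTG and 43.2% hold either. Capitals mark the core, which in these windows was always found on the strand opposite to the gene, so that it reads CACGT or CACGC here. The windows of AXL (chr19:41218973-41219222 and, for a start site within the gene, chr19:41226505-41226754, both plus strand), MET (chr7:116671946-116672195, plus strand), GAS6 (chr13:113864077-113864326, minus strand) and TYRO3 (chr15:41558962-41559211, plus strand) are shown because the first pair holds the most abundant receptors and the second pair the genes that changed most in KO. Each is written 5′ to 3′ on the strand of its gene.
AXL, first start site: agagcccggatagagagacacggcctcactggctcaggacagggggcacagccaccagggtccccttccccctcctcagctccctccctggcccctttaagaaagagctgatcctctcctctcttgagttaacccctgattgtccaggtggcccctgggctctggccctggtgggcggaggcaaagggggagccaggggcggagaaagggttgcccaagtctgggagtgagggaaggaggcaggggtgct
AXL, inner start site: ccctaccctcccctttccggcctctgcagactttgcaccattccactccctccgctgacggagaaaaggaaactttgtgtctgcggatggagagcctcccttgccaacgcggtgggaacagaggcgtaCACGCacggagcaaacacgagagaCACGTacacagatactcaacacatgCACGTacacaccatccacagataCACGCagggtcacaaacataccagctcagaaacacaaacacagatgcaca
MET: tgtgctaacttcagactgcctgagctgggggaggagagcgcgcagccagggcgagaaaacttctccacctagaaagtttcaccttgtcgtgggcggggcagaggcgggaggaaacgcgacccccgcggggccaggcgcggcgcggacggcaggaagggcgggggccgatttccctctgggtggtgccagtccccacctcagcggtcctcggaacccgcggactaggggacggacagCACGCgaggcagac
GAS6: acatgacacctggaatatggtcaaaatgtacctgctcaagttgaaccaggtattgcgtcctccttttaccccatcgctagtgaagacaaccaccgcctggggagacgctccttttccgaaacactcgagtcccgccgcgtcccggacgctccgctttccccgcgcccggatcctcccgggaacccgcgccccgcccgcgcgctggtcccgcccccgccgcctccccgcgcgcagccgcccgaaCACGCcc
TYRO3: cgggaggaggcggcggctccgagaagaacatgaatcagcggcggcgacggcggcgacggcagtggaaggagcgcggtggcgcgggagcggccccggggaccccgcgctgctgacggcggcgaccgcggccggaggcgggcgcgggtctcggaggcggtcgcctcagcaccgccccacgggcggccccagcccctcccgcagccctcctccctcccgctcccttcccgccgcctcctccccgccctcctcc
The window of the inner AXL start site held 4 cores, at positions -122, -98, -73 and -50 counted from the start site, and that of the first held 0. MET held 1 core at position -14 and GAS6 held 1 at -7. The TYRO3 window shown held 0, and that of a further TYRO3 start site (chr15:41559722-41559971) held 1, at -234. The windows of MERTK, PROS1 and MST1R held 0. Both TYRO3 windows and that of PROS1 lie within the gene as annotated by GENCODE. The DNA before the GENCODE start of TYRO3 and PROS1 was not searched. A match says only that these letters are present, and binding of HIF2α was not measured. The window of GAS6 also contains 184 bases of an exon of GAS6-DT, a noncoding gene transcribed away from GAS6.

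MET and AXL were the receptor tyrosine kinase genes with the highest level per length in all 3 groups. Levels between genes were compared as RPKM, the normalised CPM per kilobase of annotated exon. In WT the order of the 7 genes was MET with 142 ± 5.70 RPKM (SD, n = 3), AXL with 128 ± 6.33, GAS6 with 13.7 ± 1.09, TYRO3 with 3.54 ± 0.200, PROS1 with 1.16 ± 0.116, MERTK with 0.556 ± 0.109 and MST1R with 0.0317 ± 0.0159. No neighbours in this order overlapped in WT, although MET stood only 1.11-fold above AXL. MET and AXL overlapped with PT2385, where they had 130.5 ± 5.75 and 116 ± 13.1 RPKM, and in KO, where they had 123 ± 4.82 and 112 ± 6.90. PROS1 and MERTK overlapped with PT2385, at 1.11 ± 0.173 and 0.977 ± 0.125 RPKM. In KO the level of GAS6 was 20.5 ± 2.15 RPKM, against 1.73 ± 0.213 of TYRO3 and 1.28 ± 0.213 of PROS1. The order of the 7 genes was the same in all 3 groups.

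Among 58 receptor tyrosine kinase genes, MET ranked 1 and AXL ranked 2 in each group, followed by EPHA2, EGFR and LMTK2. MET held 29.0% of the summed RPKM of the 58 kinases in WT, 27.9% with PT2385 and 27.6% in KO. AXL held 26.1%, 24.8% and 25.2%. TYRO3 ranked 14 in WT and with PT2385 and 16 in KO. MERTK ranked 20, 20 and 18. Of the 58 genes, 26 were tested in PT2385 against WT, where 4 were higher and 3 lower (26.9%, against 7.70% of all genes) and 12 were called with the replicate block, a fit that called 15.3% of all genes. In KO against WT 27 were tested, of which 7 were higher and 8 lower (55.6%, against 30.1% of all genes). With the length of the canonical transcript in place of all annotated exons the ranks of MET and AXL did not change, whereas GAS6 rose to 32.9 ± 2.62 RPKM (SD, n = 3) and PROS1 to 1.82 ± 0.181 in WT, because their annotated exons add up to 6015 and 5270 bases against canonical transcripts of 2508 and 3372.

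**Figure D1:**
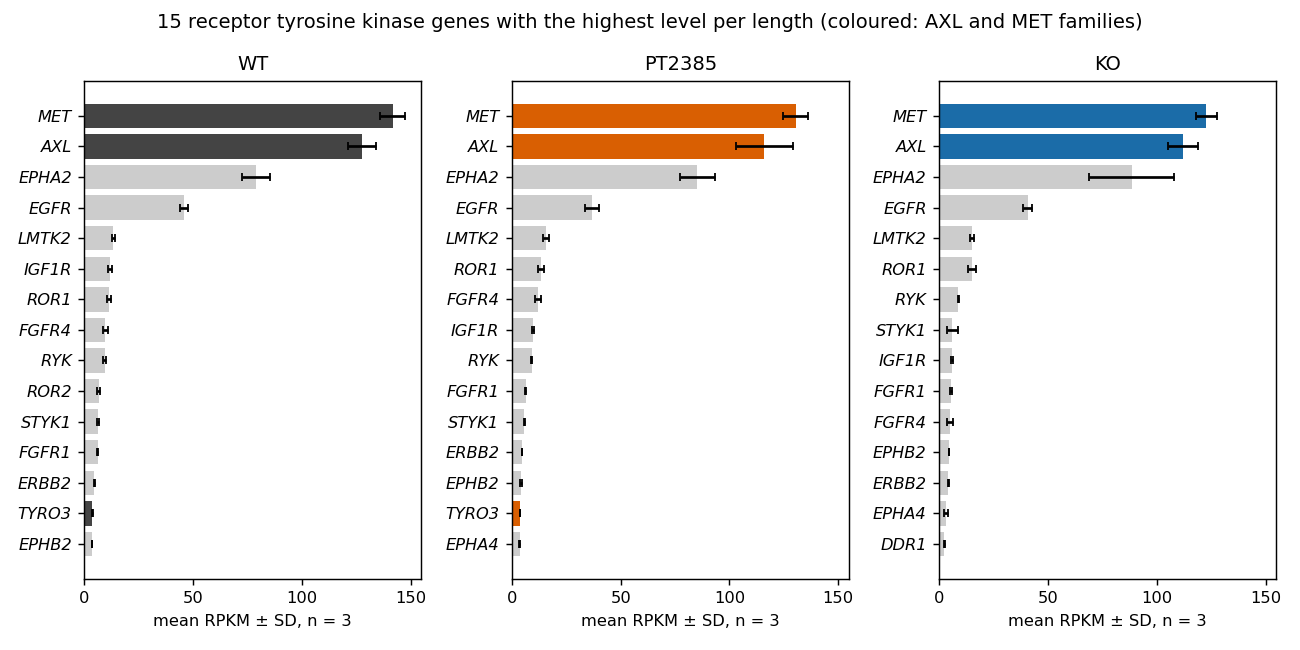
Mean RPKM (horizontal axis, linear, bars with SD over 3 libraries) of the 15 receptor tyrosine kinase genes with the highest level in WT, PT2385 and KO, one panel per group, with genes of the AXL and MET families coloured. MET and AXL stand first and second in each panel, at 142 and 128 RPKM in WT, and TYRO3, at 3.54 in WT, is among the 15 in WT and PT2385 but not in KO.

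Within the TAM receptors, AXL supplied nearly all of the RNA. It made up 96.9% ± 0.226 of the summed RPKM of AXL, TYRO3 and MERTK in WT, 96.1% ± 0.477 with PT2385 and 98.1% ± 0.0837 in KO (SD, n = 3). The share of TYRO3 was 2.69% ± 0.204 in WT, 3.07% ± 0.303 with PT2385 and 1.51% ± 0.0925 in KO. MERTK had 0.421% ± 0.0684, 0.824% ± 0.191 and 0.401% ± 0.107. All 3 KO libraries lay below all WT libraries in the share of TYRO3 and above them in that of AXL, and the KO libraries overlapped WT in that of MERTK (exact permutation test, p = 0.9). The PT2385 libraries lay apart in the opposite direction, all above WT in the shares of TYRO3 and MERTK and all below it in that of AXL. Each of these separations had p = 0.1 in an exact two-sided permutation test, the smallest that 3 against 3 libraries can give.

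Without the replicate number in the model, 1 of the 7 genes was differentially expressed upon PT2385 treatment, and 3 were in KO. Calls rest on an adjusted p under 0.05 in edgeR's quasi-likelihood test, fitted to all genes of a pair of groups. MST1R did not pass the filter on low counts, so 6 of the 7 were tested. MERTK was up-regulated upon PT2385 treatment, 1 of 6 tested genes, where 7.70% of 15089 genes were called (3.08% higher and 4.62% lower). With the replicate number as a block 3 of the 6 were called with PT2385, where 15.3% of all genes were called. In KO against WT, GAS6 was up-regulated and TYRO3 and MET were down-regulated, 3 of 6, where 30.1% of 15192 genes were called (14.7% higher and 15.4% lower). In KO against PT2385, GAS6 was higher and TYRO3 and MERTK were lower, 3 of 6, where 18.8% of 15402 genes were called (8.47% higher and 10.3% lower). Groups did not overlap for 2, 4 and 3 of the 6 genes in these comparisons, beside 26.0%, 43.8% and 35.4% of all tested genes. The median log2 fold change of the 6 genes was -0.07, -0.18 and -0.07 in these comparisons, beside 0.000993, 0.00378 and -0.00348 over all genes. Both comparisons with WT share the WT libraries, and the KO against PT2385 comparison tests the difference between them directly.

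**Figure D2:**
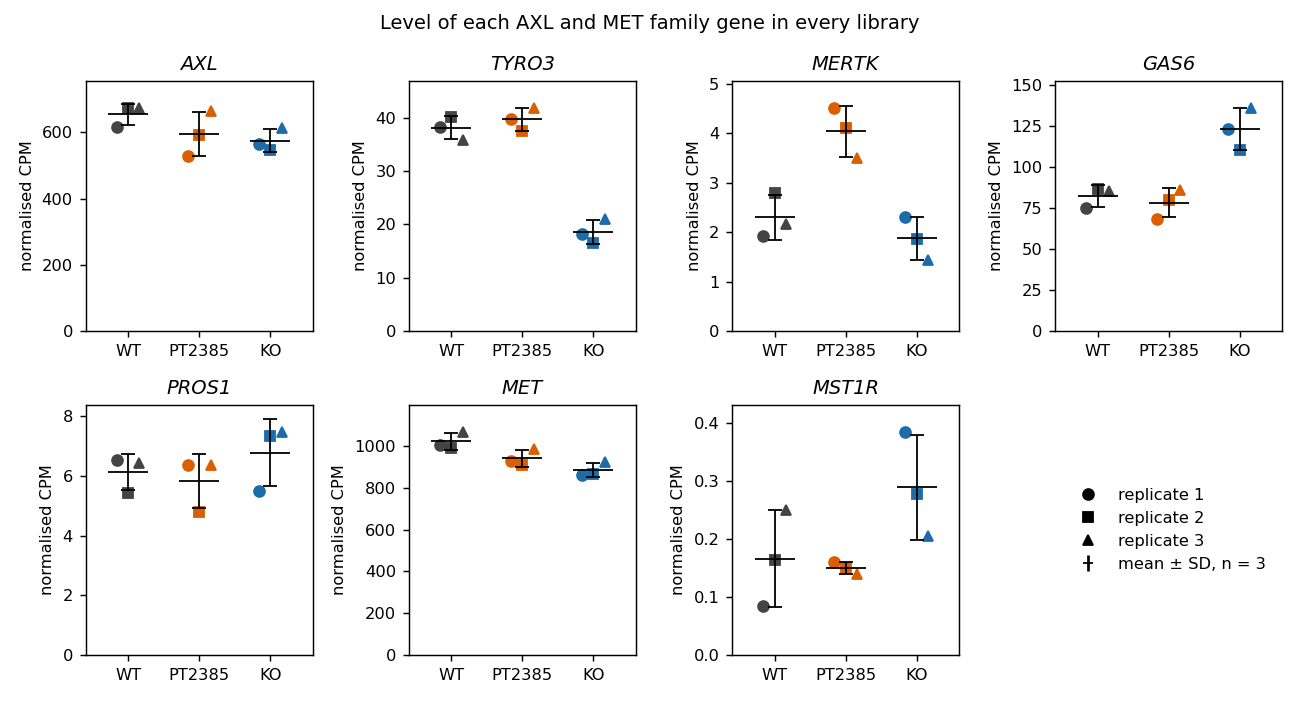
Normalised CPM (vertical axis, linear from 0) of each of the 7 genes in the 9 libraries, with symbols for the replicate number and a line with bars for mean ± SD of 3 libraries. TYRO3 in KO lies at 16.6 to 21.1 CPM, below all WT and PT2385 libraries, GAS6 in KO at 110.4 to 136 lies above all of them, and MERTK with PT2385 at 3.49 to 4.52 lies above all WT and KO libraries.

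AXL, the most abundant TAM receptor, changed little in either condition. It lies on chromosome 19 (ENSG00000167601, 41219223 to 41261766, plus strand) and its canonical transcript has 20 exons. AXL had 617, 673 and 674 normalised CPM in WT, 529, 593 and 664 with PT2385, and 566, 546 and 615 in KO. The PT2385 libraries overlapped those of WT, while all KO libraries lay below all WT libraries, the nearest pair being 615 and 617. The log2 fold change was -0.14 with PT2385 (standard error 0.0766, 95% interval -0.31 to 0.03, edgeR adjusted p = 0.33). In KO it was -0.17 (standard error 0.0632, 95% interval -0.31 to -0.03, edgeR adjusted p = 0.0611). KO and PT2385 differed by -0.05 (95% interval -0.24 to 0.14, edgeR adjusted p = 0.741).

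With WT and PT2385 libraries of the same number paired in the model, AXL was called lower upon PT2385 treatment. The labels give no such pairing, which was taken from these same counts. Deviations of same-numbered libraries from their group means correlated at 0.463, 0.144 and 0.445, weakly in replicate 2. The log2 difference of AXL was -0.22, -0.18 and -0.02 in replicates 1, 2 and 3. With the replicate number as a block the log2 fold change of AXL was -0.15 (standard error 0.0442, edgeR adjusted p = 0.0398), and in this fit 3 of the 6 tested genes were called, MERTK, AXL and MET, where 15.3% of all 15089 genes were called. AXL was also called lower with PT2385 when PT2385 replicate 3 was left out (log2 fold change -0.22, edgeR adjusted p = 0.0361).

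TYRO3, the TAM receptor that is most abundant in nervous tissue, was strongly down-regulated in KO and did not pass the test with PT2385. The gene is on chromosome 15 (ENSG00000092445, 41557675 to 41583589, plus strand). TYRO3 had 38.2, 40.2 and 35.9 normalised CPM in WT, 39.8, 37.4 and 41.8 with PT2385, and 18.2, 16.6 and 21.1 in KO. Every KO library lay below every WT and PT2385 library, whereas WT and PT2385 overlapped. The log2 fold change in KO was -1.02 (0.494-fold, standard error 0.104, edgeR adjusted p = 3.00e-05) and ranged from -1.12 to -0.94 when single replicates were left out. With PT2385 it was 0.06 (95% interval -0.12 to 0.23, edgeR adjusted p = 0.747). KO lay below PT2385 by a log2 fold change of -1.09 (standard error 0.107, edgeR adjusted p = 6.06e-05).

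TYRO3P, a pseudogene of TYRO3, moved with it. TYRO3P had 57, 59 and 66 counts in WT, 68, 65 and 81 with PT2385 and 40, 37 and 41 in KO, against 429 to 488 counts of TYRO3 in WT. Its log2 fold change in KO was -0.83 (standard error 0.181, edgeR adjusted p = 0.00519). How reads were divided between the 2 copies is not given in the sources used here, and its part in the value of TYRO3 was not tested.

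MERTK, a TAM receptor known for the clearance of dying cells by phagocytes, was expressed at a low level, and its level with PT2385 was 1.74-fold that of WT. MERTK lies on chromosome 2 (ENSG00000153208, 111898607 to 112029561, plus strand). MERTK had 23, 34 and 26 counts in WT, 56, 55 and 50 with PT2385, and 30, 27 and 21 in KO. In normalised CPM these were 1.93, 2.80 and 2.17 in WT, 4.52, 4.11 and 3.49 with PT2385, and 2.32, 1.87 and 1.44 in KO. Every PT2385 library lay above every WT and KO library, and WT and KO overlapped.

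The log2 fold change of MERTK was 0.80 with PT2385 (standard error 0.218, 95% interval 0.33 to 1.28, edgeR adjusted p = 0.0445). In KO it was -0.29 (standard error 0.267, 95% interval -0.87 to 0.30, edgeR adjusted p = 0.464). The direct comparison gave -1.11 in KO against PT2385 (standard error 0.233, edgeR adjusted p = 0.00693), and this call held in the 14 alternative fits, with an adjusted p of at most 0.0322. The call against WT was less stable, since the adjusted p was 0.091 with DESeq2 and 0.0541 with all 9 libraries in one model. It was also lost without PT2385 replicate 1 (0.0938) or 2 (0.146) and without WT replicate 1 (0.172), 2 (0.0601) or 3 (0.132), while the log2 fold change stayed between 0.69 and 0.97 (edgeR adjusted p). With the replicate block the adjusted p was 0.022.

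**Figure D3:**
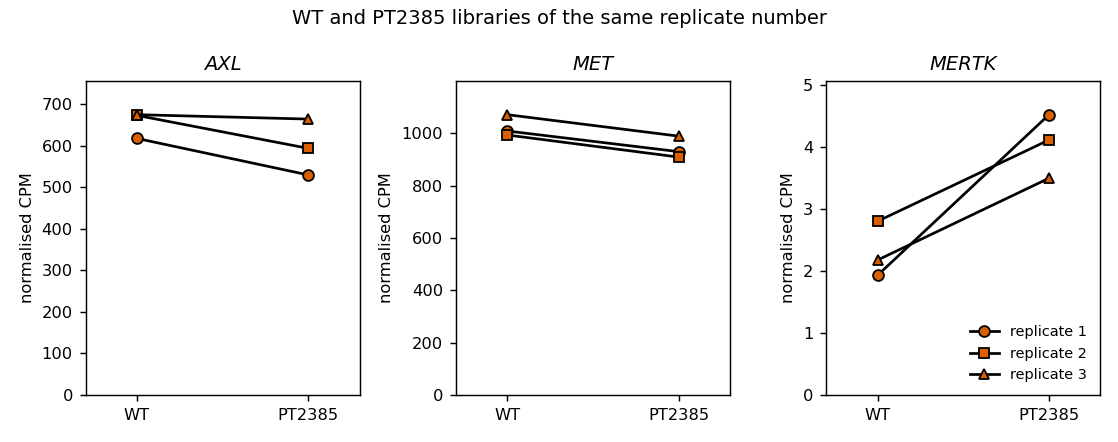
Normalised CPM (vertical axes, linear from 0) of AXL, MET and MERTK in WT and PT2385 libraries, with a line joining libraries of the same replicate number. AXL and MET were lower with PT2385 in 3 of 3 pairs, by 0.02 to 0.22 and 0.12 to 0.13 on the log2 scale, and MERTK was higher in 3 of 3.

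GAS6, the ligand shared by the TAM receptors, was up-regulated in KO, and PT2385-treated cells overlapped WT. GAS6 lies on chromosome 13 (ENSG00000183087, 113820549 to 113864076, minus strand). GAS6 had 74.9, 86.7 and 85.8 normalised CPM in WT, 68.8, 80.3 and 86.3 with PT2385, and 123, 110.4 and 136 in KO. Every KO library lay above all others. The log2 fold change in KO was 0.59 (1.51-fold, standard error 0.0861, edgeR adjusted p = 3.78e-04) and ran from 0.52 to 0.67 with each replicate left out. With PT2385 it was -0.07 (95% interval -0.27 to 0.12, edgeR adjusted p = 0.698). KO exceeded PT2385 by 0.65 (standard error 0.102, edgeR adjusted p = 0.00123).

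The noncoding genes GAS6-AS1 and GAS6-DT beside GAS6 moved in the same direction in KO. GAS6-AS1 lies on the opposite strand and shares 421 bases of exon with GAS6. GAS6-AS1 had 84, 68 and 72 counts in WT, 80, 69 and 92 with PT2385, and 280, 351 and 222 in KO, a log2 fold change of 1.73 in KO (standard error 0.185, edgeR adjusted p = 4.26e-05). GAS6-DT, transcribed away from the GAS6 promoter, had 8, 8 and 11 counts in WT, 4, 10 and 8 with PT2385 and 29, 19 and 36 in KO (log2 fold change 1.42 in KO, edgeR adjusted p = 0.00905). These neighbours were looked up after the values of GAS6 were seen. Whether reads were counted by strand is not given in the sources used here, and the part of GAS6-AS1 reads in the GAS6 counts was not tested. GAS6 had 894 to 1054 counts in WT and 1594 to 1985 in KO.

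PROS1, the gene of protein S, which also acts as a cofactor in anticoagulation, did not pass the test in any comparison. It lies on chromosome 3 (ENSG00000184500, 93873051 to 93980003, minus strand). PROS1 had 78, 66 and 77 counts in WT, 79, 64 and 91 with PT2385 and 71, 106 and 109 in KO, and the groups overlapped. The log2 fold change was -0.07 with PT2385 (95% interval -0.44 to 0.29, edgeR adjusted p = 0.853) and 0.16 in KO (95% interval -0.22 to 0.54, edgeR adjusted p = 0.528).

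The ratio of ligand to receptor RNA within a library was computed for GAS6 and AXL. GAS6 RPKM over AXL RPKM was 0.104, 0.110 and 0.109 in WT, 0.111, 0.116 and 0.111 with PT2385, and 0.186, 0.173 and 0.189 in KO. All KO and all PT2385 libraries lay above all WT libraries (exact two-sided permutation test, p = 0.1 for each, the smallest possible), with means of 0.183 ± 0.00878 in KO, 0.113 ± 0.00264 with PT2385 and 0.107 ± 0.00339 in WT (SD, n = 3). GAS6 RPKM over PROS1 RPKM was 11.9 ± 1.98 in WT, 12.03 ± 2.63 with PT2385 and 16.3 ± 3.28 in KO, and KO overlapped WT (exact two-sided permutation test, p = 0.2).

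MET had the highest level of all 58 receptor tyrosine kinase genes and was slightly lower in KO. MET maps to chromosome 7 (ENSG00000105976, 116672196 to 116798377, plus strand), and its canonical transcript has 21 exons. MET had 1009, 993 and 1071 normalised CPM in WT, 930, 909 and 989 with PT2385, and 863, 869 and 926 in KO. Every PT2385 and every KO library lay below every WT library, and PT2385 and KO overlapped. The log2 fold change in KO was -0.20 (0.873-fold, standard error 0.0563, 95% interval -0.32 to -0.07, edgeR adjusted p = 0.0223). With PT2385 it was -0.12 (0.918-fold, standard error 0.0546, edgeR adjusted p = 0.22), and with the replicate number as a block it was called lower (standard error 0.0346, adjusted p = 0.0264). KO and PT2385 differed by -0.09 (95% interval -0.23 to 0.05, edgeR adjusted p = 0.36). The call in KO was lost without KO replicate 1 (edgeR adjusted p = 0.0874) or 2 (0.0605) and without WT replicate 1 (0.0596) or 3 (0.0912), with log2 fold changes of -0.23 to -0.17 over the 6 fits that left out a library.

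**Figure D4:**
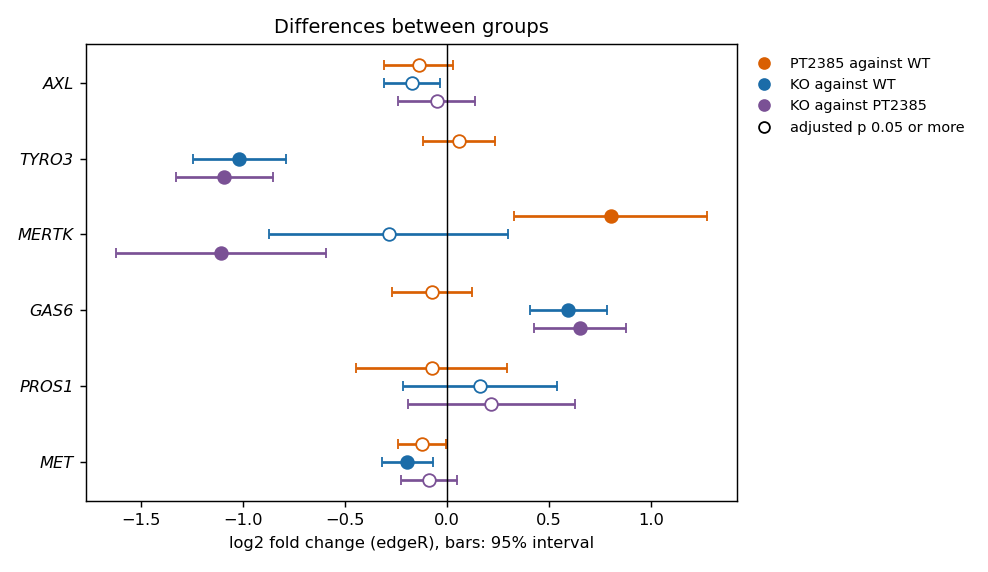
Log2 fold changes (horizontal axis) of the 6 tested genes in the 3 comparisons, with bars for the 95% interval of the edgeR model. Filled points passed an adjusted p of 0.05 in the fits without the replicate block. TYRO3 and GAS6 lie apart from 0 in KO against WT (-1.02 and 0.59) and in KO against PT2385 (-1.09 and 0.65). MERTK lies apart from 0 with PT2385 (0.80), a call lost in 7 of 14 alternative fits, and in KO against PT2385 (-1.11). AXL and MET lie between -0.20 and -0.05 throughout.

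MST1R was near the detection floor in all groups. It lies on chromosome 3 (ENSG00000164078, 49887002 to 49903873, minus strand) and had 1, 2 and 3 counts in WT, 2, 2 and 2 with PT2385, and 5, 4 and 3 in KO. At this depth a difference between the groups was not detectable. The single count in WT replicate 1 has an exact Poisson interval of 0.0253 to 5.57 counts, and the 5 counts in KO replicate 1 one of 1.62 to 11.7, which cover counting error only.

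The ligands of the MET family were also scarce. HGF had 0 counts in all 9 libraries, which allows up to 3 counts per library or 0.206 to 0.251 CPM. MST1, the ligand of MST1R, had 6, 7 and 3 counts in WT, 6, 6 and 5 with PT2385 and 5, 12 and 10 in KO, and did not pass the filter. Growth factors in the serum of the medium were not measured.

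The lists of pathway genes below were written from textbook knowledge of both families, and genes are named by size of change. Earlier results of these data were known when the lists were chosen. The shares called in them are therefore descriptive, and are no test of the lists against all genes. Of 10 proteases that activate HGF or MST1 protein, 2 were tested. PLAU, the urokinase plasminogen activator, was up-regulated upon PT2385 treatment (log2 fold change 0.39, edgeR adjusted p = 0.00261), 1 of 2 (50%, against 7.70% of all genes). In KO edgeR and DESeq2 called 0 of the 2, where edgeR called 30.1% of all genes. An unadjusted p under 0.05 was seen in KO for 0 of the 2, beside 6133 of all 15192 genes. Of 4 inhibitors of this activation 3 were tested, with 1 called upon PT2385 treatment (33.3%, against 7.70% of all genes) and 2 in KO (66.7%, against 30.1%). SPINT2, an inhibitor of HGF-activating proteases, was up-regulated in KO from 55.0 ± 2.62 to 102 ± 1.81 normalised CPM (SD, n = 3), with an edgeR adjusted p of 1.87e-06 for a log2 fold change of 0.91. With all 9 libraries in one model the call of PLAU upon PT2385 treatment was lost (edgeR adjusted p = 0.137).

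Of 6 genes for the maturation of these ligands and of proproteins, 5 were tested. Upon PT2385 treatment edgeR called 0 and DESeq2 called 0, where edgeR called 7.70% of all genes. An unadjusted p under 0.05 was seen for 2, beside 3193 of all 15089 genes. With the replicate block 2 were called, where 15.3% of all genes were called. In KO 4 were called, 1 higher and 3 lower (80%, against 30.1% of all genes). GGCX, the enzyme that carboxylates vitamin K-dependent proteins such as GAS6 and protein S, rose in KO from 59.8 ± 2.90 to 78.8 ± 3.09 normalised CPM (SD, n = 3, log2 fold change 0.41, edgeR adjusted p = 9.53e-04). FURIN, the convertase that cleaves the MET precursor, fell from 94.3 ± 1.31 to 60.5 ± 4.93 (log2 fold change -0.63, edgeR adjusted p = 6.58e-05). PCSK5, a convertase of the same family, fell from 177 ± 20.8 to 25.7 ± 5.55 (log2 fold change -2.76, edgeR adjusted p = 1.04e-07). The median log2 fold change of the 5 genes in KO was -0.63, beside 0.00378 over all genes.

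Of 20 genes for the exposure of phosphatidylserine and the engulfment of dying cells, 15 were tested. Upon PT2385 treatment 2 were higher and 2 lower (26.7% called, against 7.70% of all genes), and in KO 4 were higher and 3 lower (46.7%, against 30.1%). ITGB3, an integrin subunit that pairs with ITGAV, was up-regulated in both, with log2 fold changes of 0.95 (edgeR adjusted p = 0.00101) and 0.68 (edgeR adjusted p = 0.00278). ITGB5, another integrin subunit that pairs with ITGAV, fell upon PT2385 treatment (log2 fold change -0.45, edgeR adjusted p = 0.00257). LRP1, an endocytic receptor, rose in KO (log2 fold change 1.01, edgeR adjusted p = 3.16e-05). MFGE8, which bridges phosphatidylserine to integrins, was higher with PT2385 than in KO, with 33.8 ± 1.53 and 18.0 ± 3.05 normalised CPM (SD, n = 3) beside 26.4 ± 2.21 in WT, and KO against PT2385 gave a log2 fold change of -0.91 (edgeR adjusted p = 4.72e-04).

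Among 16 co-receptors and partners, of which 10 were tested, 2 were called with PT2385 (20%, against 7.70% of all genes) and 3 in KO (30%, against 30.1%), so that the share in KO was that of all tested genes. NRP1, a co-receptor that binds growth factors, was up-regulated in both, from 87.3 ± 2.74 to 129 ± 1.90 normalised CPM upon PT2385 treatment (edgeR adjusted p = 9.46e-05) and to 241 ± 41.0 in KO (edgeR adjusted p = 1.79e-06, SD, n = 3 for each). Plexins of the class that associates with MET went in different directions in KO. PLXNB2 rose (log2 fold change 0.54, edgeR adjusted p = 7.05e-05), whereas PLXNB1 fell (log2 fold change -0.31, edgeR adjusted p = 0.0311). The call of PLXNB1 was lost with DESeq2 and without KO replicate 1 (edgeR adjusted p = 0.121) or WT replicate 1 (0.113) or 3 (0.0819). EGFR, which can form complexes with AXL and MET, fell upon PT2385 treatment (log2 fold change -0.32, edgeR adjusted p = 0.0125), a call that was lost without PT2385 replicate 2 (0.0761) or WT replicate 1 (0.0548) or 3 (0.0628).

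Of 17 genes for shedding and degradation of receptors, 15 were tested, 3 of which were called with PT2385 (20%, against 7.70% of all genes) and 8 in KO (53.3%, against 30.1%). ADAM10, a protease that sheds AXL and other receptors from the cell surface, fell in KO from 306 ± 12.3 to 199 ± 5.31 normalised CPM (SD, n = 3, log2 fold change -0.60, edgeR adjusted p = 1.98e-05). TIMP1, an inhibitor of metalloproteinases, rose in KO (log2 fold change 0.64, edgeR adjusted p = 1.57e-04). USP8, a deubiquitinase of endocytosed receptors, fell in KO (log2 fold change -0.60, edgeR adjusted p = 5.66e-05).

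Of 19 phosphatases and feedback regulators 17 were tested, and 5 were called with PT2385 (29.4%, against 7.70% of all genes) and 9 in KO (52.9%, against 30.1%). With the replicate block 7 were called with PT2385, where 15.3% of all genes were called. ERRFI1, a feedback inhibitor of EGF receptor family kinases, fell from 569 ± 28.9 normalised CPM in WT to 145 ± 15.5 with PT2385 and 122 ± 8.04 in KO (SD, n = 3), with log2 fold changes of -1.98 (edgeR adjusted p = 1.04e-08) and -2.21 (edgeR adjusted p = 3.28e-09). DUSP1, a MAP kinase phosphatase, fell in both as well, by 0.74 and 1.38 on the log2 scale (edgeR adjusted p = 0.00199 and 2.58e-04). DUSP5, a phosphatase of ERK kinases, rose in both, with log2 fold changes of 1.45 and 1.31 (edgeR adjusted p = 2.64e-04 and 0.00836), though its KO and WT libraries overlapped.

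Of 40 adaptors and signal transducers 37 were tested. Upon PT2385 treatment 2 were called (5.41%, against 7.70% of all genes), 6 genes with the replicate block (15.3% of all genes), and in KO 11 were called (29.7%, against 30.1% of all genes), so that neither share without the block stood above that of all tested genes. MAP2K1, the gene of the kinase MEK1, fell in both, with log2 fold changes of -0.45 (edgeR adjusted p = 0.00801) and -1.20 (edgeR adjusted p = 3.80e-06), the first of which was lost without replicate 2 of PT2385 (0.0521) or of WT (0.0527). TNS2, a tensin reported to bind AXL, rose in KO (log2 fold change 0.83, edgeR adjusted p = 2.82e-04). Among 20 transcription factor genes linked to AXL or MET 18 were tested, with 2 called with PT2385 (11.1%, against 7.70% of all genes) and 7 in KO (38.9%, against 30.1%), EPAS1 among them. With the replicate block 6 were called with PT2385, where 15.3% of all genes were called. ETS1 fell upon PT2385 treatment (log2 fold change -0.39, edgeR adjusted p = 0.0158), which was lost without PT2385 replicate 2 (0.088), without WT replicate 2 (0.0606) or 3 (0.0801) and with all 9 libraries in one model (0.193). PAX2, a kidney lineage factor, fell in KO (log2 fold change -1.30, edgeR adjusted p = 2.84e-05).

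**Figure D5:**
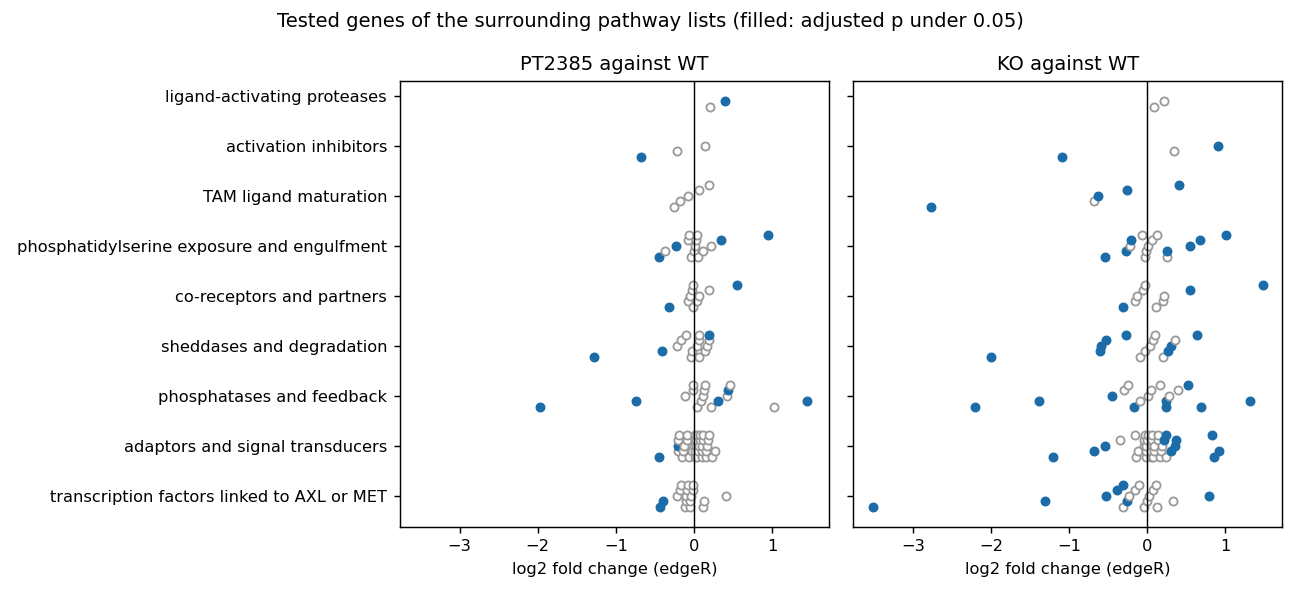
Log2 fold changes (horizontal axis) of the tested genes of 9 pathway lists (rows) upon PT2385 treatment and in KO, each against WT, with one point per gene and filled points for an adjusted p under 0.05. In the ligand maturation list 0 genes are filled with PT2385 and 4 in KO, with PCSK5 farthest from 0 at -2.76, and most adaptors and signal transducers are unfilled.

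The pattern of TYRO3 over the 9 libraries was nearest to that of ZWILCH, a gene of the mitotic checkpoint, then of TLNRD1 and SPATA5L1. Likeness was measured as the root mean square difference of log2 CPM, each gene being centred on its own WT mean, and was 0.0972, 0.124 and 0.127 for these genes, against a median of 0.62 over 9448 genes with a mean of at least 10 CPM. The nearest genes lie below this median because they were picked as the smallest differences. Whether they are nearer than other genes that shift between the groups was not tested. The genes nearest to GAS6 were CAPN2, DEGS1 and TUBA4A, at 0.063, 0.0818 and 0.0834 against a median of 0.391. RAB11FIP5, SEPTIN9 and LIG1 were nearest to AXL (0.0379 to 0.0483, median 0.234), and SPEN, ZNF316 and RAD21 were nearest to MET (0.0297 to 0.0337, median 0.221).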

How the data were processed

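RNAseq of 9 libraries of 786-0 cells was analysed, 3 each of WT, PT2385 and KO, grouped by their labels. The authors deposited raw counts of reads per gene, without normalization. According to the methods, STAR aligned the reads to GRCh38 after quality control (FastQC) and trimming of low-quality reads (cutadapt), and featureCounts counted them. Versions, annotation release and strandedness are not given in the sources used here. All 9 columns were mapped to a sample. Of 58735 identifiers, 58207 were paired with a symbol through GENCODE release 44 (GRCh38), which also gave coordinates, exons and lengths.

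Each pair of groups was fitted with edgeR 4.0.16 in R 4.3.3 to the whole table, using filterByExpr (minimum 10 counts), TMM scaling and the quasi-likelihood F test, and p-values were adjusted by Benjamini-Hochberg over every gene tested. Standard errors were obtained from the fold change and its F statistic. CPM and RPKM used TMM factors of all 9 libraries, from 0.988 to 1.02. The steps were tested on simulated data. An exact permutation test of 3 against 3 libraries cannot give p below 0.1. The precision of low genes is limited by depth, and 3 counts served as the floor.

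The main fits did not use the replicate number. WT and PT2385 libraries of the same number were taken as paired only in the fit with the replicate block. This pairing is not given by the labels. It was taken since the correlation of their deviations from group means over 9552 genes was 0.463, 0.144 and 0.445. The value for replicate 2 was near that of PT2385 replicate 2 with WT replicate 1 (0.0922). Named genes are the 7 members, EPAS1, VEGFA, and per pathway list and comparison up to 3 called genes with the largest change and a mean of at least 10 CPM. Members and lists were chosen with earlier results of these data known. TYRO3P, GAS6-AS1 and GAS6-DT were chosen after values were seen. Alternatives were other scalings (RLE, upper quartile, library size), no filter or a minimum of 10 counts in every library, DESeq2 1.42.0, a replicate block, all 9 libraries in one model, leaving out each replicate and, added after the data were seen, canonical transcript length.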

Additional observations from a re-analysis of the deposited data

How the results depend on the processing

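Upon PT2385 treatment the number of the 6 tested genes that were called moved from 1 to 0 with DESeq2, to 0 with all 9 libraries in one model and to 3 with the replicate block, and ran from 0 to 2 with each replicate left out. In KO against WT it was 3 and ran from 2 to 4, and in KO against PT2385 it was 3 in all 14 alternative fits. The direction was reversed in 3 results that had not passed the test, GAS6 with PT2385 without PT2385 replicate 1 (log2 fold change 0.00893, with -0.15 as the other end of the range over left-out replicates), PROS1 with PT2385 without PT2385 replicate 2 (0.0471, range from -0.15) and AXL in KO against PT2385 without PT2385 replicate 3 (0.0445, range from -0.13), and the cause was not tested. The calls of TYRO3 and GAS6 in KO held in all 14 fits against each of the other groups. KO and WT libraries of the same number were not taken as paired, since their deviations correlated at 0.317, 0.0578 and 0.494 for numbers 1 to 3. This choice turned on number 2 alone. With the replicate block the genes called in KO against WT rose from 4566 to 5501 in all and from 3 to 4 members, AXL among them (log2 fold change -0.17, edgeR adjusted p = 0.0222), and AXL was also called with library-size scaling (0.0404), with no filter (0.0408) and without KO replicate 3 (0.00977). In KO against PT2385, with correlations of 0.351, 0.0947 and 0.417, the block changed no call of a member. In PT2385 against WT it raised the genes called from 1162 to 2305. Leaving out a replicate gave 574 to 1451 genes there, and the test without a filter gave 1701 genes. Canonical transcript length moved the WT level of GAS6 from 13.7 to 32.9 RPKM and that of PROS1 from 1.16 to 1.82. MERTK, PROS1 and MST1R had at most 109 counts in a library, so small changes of these genes could not be seen at this depth.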
